A study of Rattus norvegicus with 12 samples.

Results

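Gene expression in the left ventricle of fructose-fed rats was compared between 6 arrays from low sodium rats and 6 arrays from normal sodium rats, which are all 12 arrays of the series. Infusion of angiotensin II (AngII), the pressor peptide of the renin-angiotensin system, was the second factor. The diet change of a gene is the mean of 2 differences, low minus normal sodium without infusion and low minus normal sodium under AngII, so that both infusion states count equally. It is given as a log2 change, with 0 for no difference. The genes described are those whose 2 differences had the same sign, with Agtr1a and Sgk1 added for their role. That held for 6413 of the 11211 genes tested, or 57.2%. Of these, 3795 (33.9% of all genes) were lower on low sodium in both differences and 2618 (23.4%) were higher in both.

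The rats were male Sprague-Dawley animals, and all of them ate a diet with 60% fructose for 8 weeks, so the controls were fructose-fed as well. The diet held 0.64% NaCl (normal sodium) or less than 0.01% NaCl (low sodium). From week 4 on, rats of each diet received subcutaneous AngII at 200 ng/kg/min for 4 weeks or were not infused, so each of the 2 diets has 3 infused and 3 uninfused arrays, in 4 groups. The labels name no vehicle infusion for the uninfused rats, and they number the arrays of a group as replicates without saying in words that each came from another rat, so the p-values measure the spread between these samples.

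High fructose feeding in rats is used as a model of the metabolic syndrome. When sodium intake falls, the kidney releases renin, and AngII and aldosterone rise to retain salt. In the heart, AngII acts on vessels, myocytes and fibroblasts and is known for promoting collagen deposition. The ventricle releases natriuretic peptides under wall stress, and resident macrophages take part in matrix turnover.

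Signals are log2 values relative to the 75th percentile of the array, so 0 is a bright probe and each unit is a doubling. That percentile lay between 1399 and 1988 intensity units, against a local background of 20 to 29.5, and no spot was saturated. Over the tested probes with a value on every array, pairs of arrays within a group had Pearson's r of 0.980 to 0.992, and pairs from different groups had 0.977 to 0.993. Non-uniform spots numbered 88 in normal sodium replicate 1 and at most 3 elsewhere. Each of the 3 slides held 1 array of every group, always at the same position, so position and group cannot be told apart. Of 20 ventricular cardiomyocyte markers listed, 19 had a probe and all 19 were well above background on every array of at least 1 group. Of these 19 markers, 15 were below 0 in the mean, against 56% of all genes, with 0 members at an unadjusted p under 0.05. Their median diet change was -0.06, with 0.01 without infusion and -0.11 under AngII. That median turned to 0.01 when arrays were scaled by their median and was -0.11 in the authors' own values. In whole tissue, fewer cells of a type and less RNA per cell cannot be told apart.

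By single genes the diet change did not pass correction for multiple tests. With limma, 0 of 20020 probes (0%) had an adjusted p under 0.05, and the smallest adjusted p was 0.116, shared by 9 probes. An unadjusted p under 0.05 was found for 2508 probes (12.5%), where 1001 would be expected if no probe changed. Of these, 813 (4.06%) were higher on low sodium and 1695 (8.47%) were lower. Higher probes thus made up 32.4% of the 2508, but 64.5% when arrays were scaled by their median and 63.1% in the authors' own values. The median change of all probes was -0.02, against 0.05 and 0.04 under those scalings. The share was 39.0% with the percentile taken over probes, 41.6% after normexp background correction and 44.3% after quantile normalization. Small changes of 1 sign are therefore read against that shift. Of the genes, 1542 (13.8%) had an unadjusted p under 0.05, 1039 of them (9.27%) lower and 503 (4.49%) higher. The median diet change over all genes was -0.03.

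Weighting the arrays by their fit called 413 probes (74 higher and 339 lower). These weights ranged from 0.245 for normal sodium replicate 1 to 5.91 for low sodium with AngII replicate 2. Without normal sodium replicate 2, 20 probes passed, Col3a1, Adgre1 and Mycn among them.

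The diet change counts both infusion states equally by definition, so each was also fitted alone. Without infusion, limma called 0 probes (0%), with 1407 (7.03%) at an unadjusted p under 0.05 and a smallest adjusted p of 0.507. Under AngII it called 0 probes (0%), with 2223 (11.1%) at an unadjusted p under 0.05 and a smallest adjusted p of 0.0567. Pearson's r between the 2 differences was 0.254 and Spearman's rho 0.224 across probes, which are not independent replicates. The 2 differences share no array, but they share the 3 slides. The difference between them was tested as an interaction, and 0 probes passed (0%), with 1014 (5.06%) at an unadjusted p under 0.05. In 266 probes (1.33%) the 6 low sodium arrays did not overlap the 6 normal sodium arrays. By genes there were 188 (1.68%), of which 129 (1.15%) lay below and 59 (0.526%) above.

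**Figure D1:**
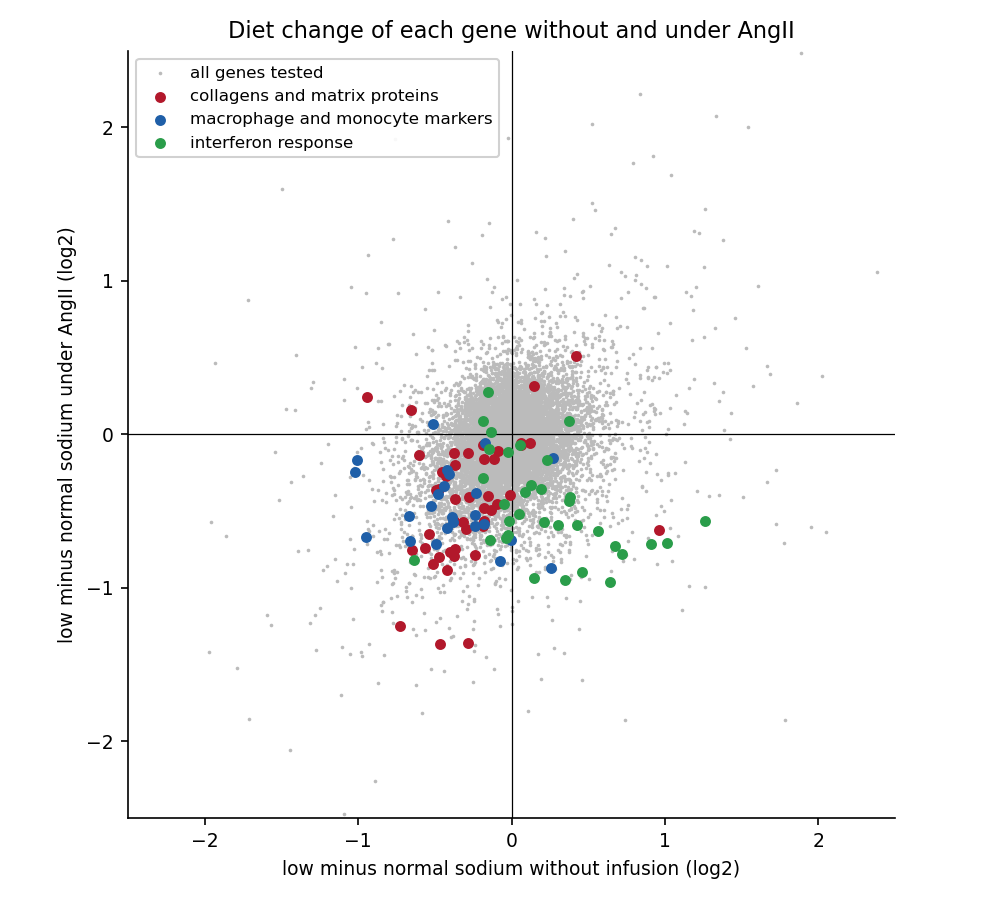
Diet change of each gene without infusion (horizontal axis, log2) against that under AngII (vertical axis, log2), 1 point per gene, with 3 gene lists in colour; 6 genes lie beyond the axes. Of the 45 collagen and matrix genes (red), 37 lie in the lower left corner, as do 21 of 24 macrophage markers (blue), while 24 of 34 interferon response genes (green) have opposite signs.

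Among named genes the smallest p belonged to Col3a1, which encodes the chain of type III collagen, a fibrillar collagen of the cardiac interstitium. Its signal on the normal sodium arrays ran from 3.55 over a median of 4.01 to 4.26, and on the low sodium arrays from 3.17 over 3.32 to 3.45. Every low sodium array lay below every normal sodium array, and the 3 infused normal sodium arrays were the highest of all, at 4.16 to 4.26. The diet change of Col3a1 was -0.65 ± 0.08 (limma standard error, 6 arrays against 6), or 1.57-fold lower, with an adjusted p of 0.116. It was -0.42 without infusion and -0.88 under AngII.

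Adgre1 encodes F4/80, a surface receptor that defines macrophages in rodents. Its signal was -2.70 to -2.23 on normal sodium (median -2.30) and -3.50 to -3.00 on low sodium (median -3.18), with no overlap. The diet change was -0.81 ± 0.11 (adjusted p = 0.116), and here the uninfused difference, -0.95, was the wider one against -0.67 under AngII.

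Mycn, a transcription factor gene of the Myc family, ranged from -2.53 to -1.56 on normal sodium and from -3.32 to -2.98 on low sodium. The 6 low sodium arrays again lay below all others, and the change of -1.19 ± 0.18 (2.28-fold lower, adjusted p = 0.116) was alike in both states, -1.25 and -1.13. Hamp encodes hepcidin, the peptide hormone that lowers iron export from cells, and is made in the heart as well as in the liver. It stood at -0.14 to 1.08 on normal sodium and at -1.38 to -0.72 on low sodium, a change of -1.27 ± 0.20 (adjusted p = 0.116), with -1.31 and -1.23 in the 2 states.

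Vim (vimentin, the intermediate filament of mesenchymal cells) was at -0.52 ± 0.09 and Dbn1 (drebrin, an actin-binding protein) at -0.71 ± 0.13, both without overlap between the diets. Plk2, a polo-like kinase, was at -0.70 ± 0.11, with -0.71 and -0.70 in the 2 states. Gatm, which makes the creatine precursor guanidinoacetate, was at -0.59 ± 0.09 on its brightest probe, but its other probe gave -0.08. The ion transport family member Ano4 was at -0.88 ± 0.15 in the processed signal and at -0.33 in the authors' values.

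A last pair among the 12 lowest p on the lower side was dim. Cd200r1, a myeloid inhibitory receptor, was at -0.79 ± 0.13. It was well above background on 6 normal but only 3 low sodium arrays, and it stood at 0.07 in the authors' values. Postn (periostin, a matrix protein of activated fibroblasts) was at -0.82 ± 0.15, most of it under AngII (-0.28 without and -1.36 with infusion). Its signal was well above background on 4 normal and 5 low sodium arrays, and its change was -0.10 in the authors' values.

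**Figure D2:**
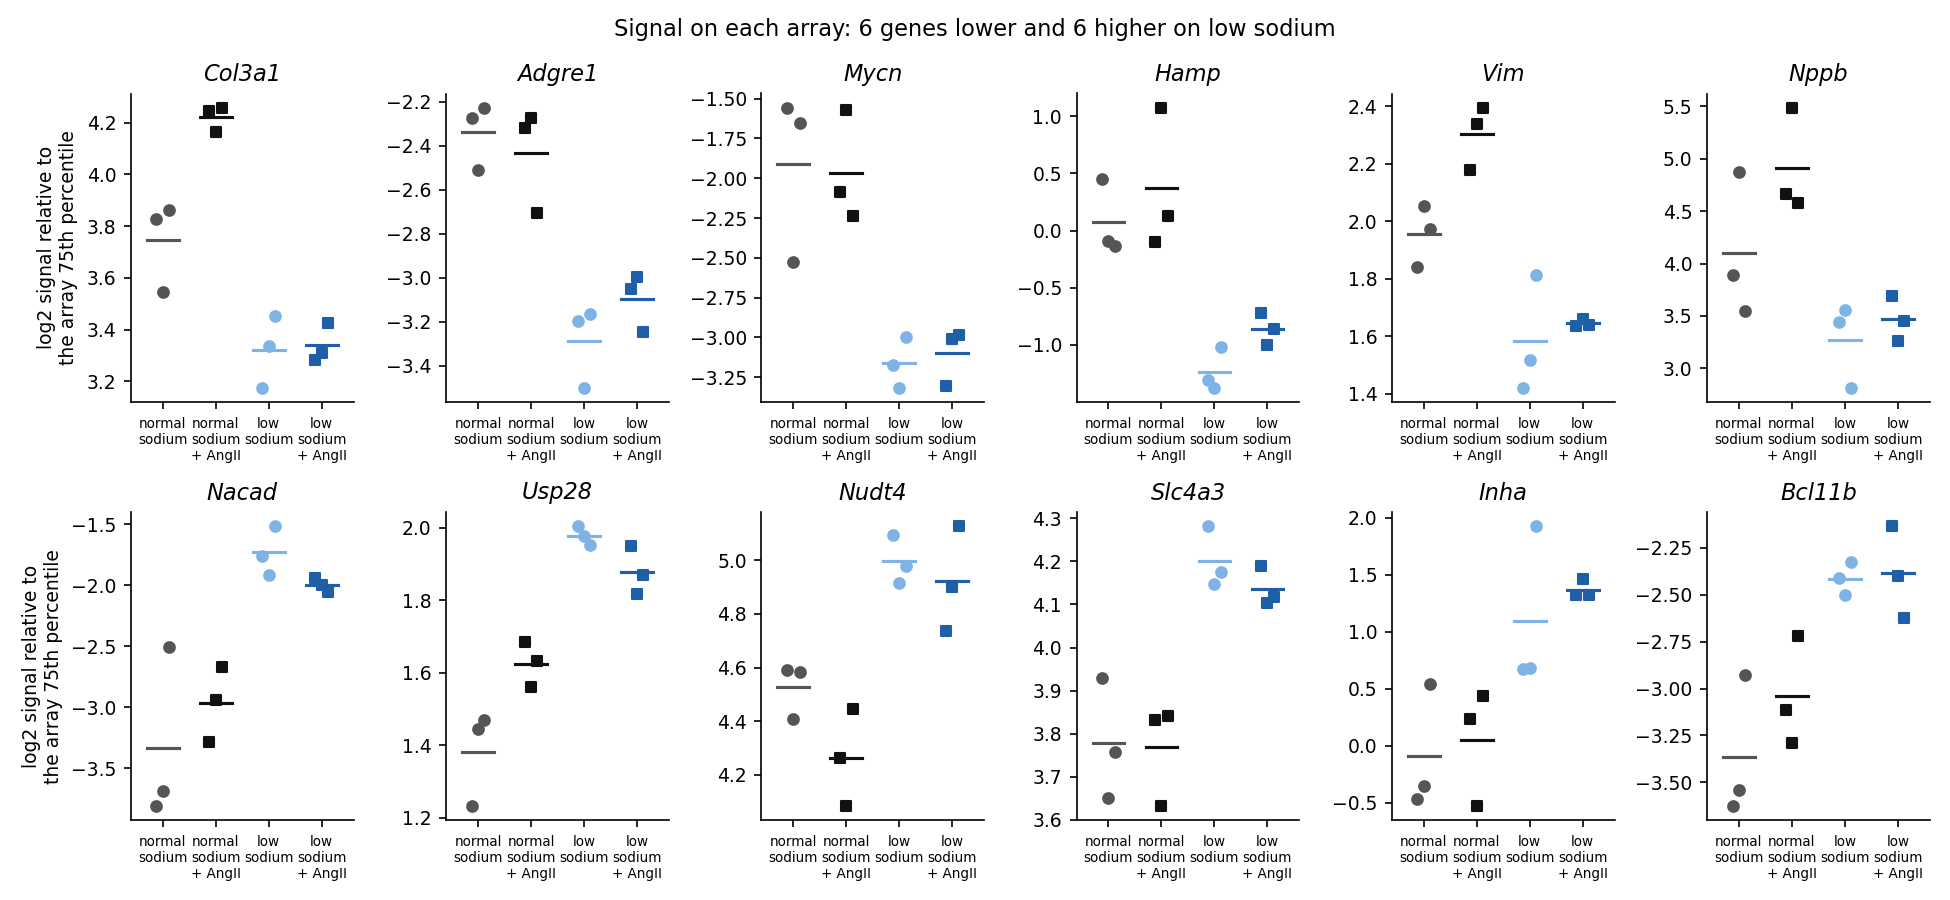
Signal of 12 genes on each of the 12 arrays (log2 relative to the 75th percentile of the array), with circles for uninfused and squares for infused rats, grey and black for normal sodium, blue for low sodium, and a line at each group mean; each panel has its own scale. The upper row shows genes lower on low sodium; all but Nppb have no overlap between the diets, and the lower row shows 6 genes whose low sodium arrays all lie above the normal sodium arrays.

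On the higher side, Nacad, a paralogue of a subunit of the nascent polypeptide-associated complex, had the largest change among the 12 genes of smallest p. Its signal was -3.81 to -2.51 on normal sodium and -2.05 to -1.51 on low sodium, which do not overlap. The change was 1.29 ± 0.21 (2.44-fold higher, adjusted p = 0.125), with 1.61 without infusion and 0.97 under AngII, and with 0.97 for the mean after the normexp background correction. Usp28, a deubiquitinating enzyme, was less variable: 1.23 to 1.68 on normal and 1.82 to 2.00 on low sodium, a change of 0.43 ± 0.07 (adjusted p = 0.125).

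Nudt4, which hydrolyses diphosphoinositol phosphates, had the brightest signal of these 12 genes, at 4.08 to 4.59 on normal and 4.73 to 5.13 on low sodium. Its change was 0.56 ± 0.10, with 0.47 and 0.66 in the 2 states and no overlap. Inha, the inhibin alpha subunit, a secreted antagonist of activin, stood at -0.53 to 0.54 on normal and 0.67 to 1.93 on low sodium, a change of 1.26 ± 0.27 (adjusted p = 0.144). Slc4a3, the cardiac chloride-bicarbonate exchanger that loads acid into myocytes, was at 3.63 to 3.93 on normal and 4.10 to 4.28 on low sodium, a change of 0.40 ± 0.08 without overlap.

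Further genes of small p were the transcription factor gene Bcl11b at 0.81 ± 0.15, the chromatin protein gene Hmgn5 at 0.54 ± 0.11 (0.18 on its other probe) and the carboxylesterase gene Ces1d at 0.54 ± 0.11, measured on 11 arrays because normal sodium replicate 1 had no usable spot. Tm7sf2, a sterol reductase gene, was at 0.50 ± 0.10, with 0.20 without infusion and 0.79 under AngII. The cell cycle inhibitor gene Cdkn1c stood at 0.40 ± 0.08, almost all of it under AngII (0.06 without and 0.74 with infusion). Prima1, which anchors acetylcholinesterase in membranes, was at 0.99 ± 0.19 on 1 probe and at -0.03 on its other. Ccdc146 was at 1.01 ± 0.22, well above background on 3 normal and 5 low sodium arrays, and at 0.23 after normexp. With Col8a1, the 12 genes of smallest p on each side had adjusted p-values between 0.116 and 0.144.

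Lower values were common among collagens and matrix proteins, the genes of the interstitial scaffold. Of 45 tested, 40 were below 0 in the mean, against 56% of all genes, and 37 in both differences, against 33.9%. At an unadjusted p under 0.05, 28 were lower and 0 higher, against 9.27% and 4.49% of all genes, and 0 passed the adjusted threshold. The median change was -0.35, and -0.28 to -0.40 over all settings that keep the 12 arrays. It was -0.32 without infusion and -0.42 under AngII, and within slides 1, 2 and 3 it was -0.34, -0.33 and -0.42.

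Within this list the fibrillar collagen chains had values of -0.65 for Col3a1, -0.43 ± 0.11 for Col1a2 and -0.39 ± 0.14 for Col1a1. The diets overlapped in Col1a1, with 1.49 to 2.44 on normal and 1.48 to 1.92 on low sodium, and its other probe gave -0.64. Col1a2 did not overlap, at 4.04 to 4.57 on normal and 3.44 to 4.00 on low sodium. Col8a1, a short-chain collagen of vessel walls, was at -0.99 ± 0.16, with -0.72 and -1.25 in the 2 states.

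Members of the list without overlap between the diets were, besides Col3a1 and Col1a2, Fbln5, Loxl2 and Sparc, named after their values were seen. Fbln5 (fibulin-5, which helps assemble elastic fibres) was at -0.70 ± 0.13, with -2.31 to -1.75 on normal and -3.02 to -2.34 on low sodium. Loxl2, which crosslinks collagen, was at -0.59 ± 0.12, with -0.56 to 0.09 on normal and -1.08 to -0.71 on low sodium. Sparc (osteonectin, a collagen-binding matricellular protein) was among the brightest, with 6.10 to 6.73 on normal and 5.50 to 6.10 on low sodium, and a change of -0.58 ± 0.13. Each of the 3 had an adjusted p of 0.144. Cilp, a matrix protein outside the list that was also chosen after its values were seen, was at -1.20 ± 0.22, with -3.81 to -2.14 on normal and -5.07 to -3.86 on low sodium, again without overlap.

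For 3 of these 5 genes RefSeq (GRCr8) gives a start site, and the 250 bases before it are shown because the arrays of these genes do not overlap between the diets. Capitals mark matches on either strand to 4 short motifs. They are TATAAA (the TATA box), then CCAAT (the box of that name), then GGGCGG (the box bound by Sp proteins) and lastly CAGAC (a core bound by Smad proteins, which carry the TGF-beta signal).
Col1a2, chr4:33518307-33518556, plus strand: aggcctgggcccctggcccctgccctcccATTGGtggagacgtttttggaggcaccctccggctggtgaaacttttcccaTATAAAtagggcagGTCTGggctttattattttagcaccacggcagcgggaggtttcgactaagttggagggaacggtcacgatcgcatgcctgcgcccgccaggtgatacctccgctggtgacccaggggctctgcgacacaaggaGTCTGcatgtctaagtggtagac
Sparc, chr10:40038817-40039066, minus strand: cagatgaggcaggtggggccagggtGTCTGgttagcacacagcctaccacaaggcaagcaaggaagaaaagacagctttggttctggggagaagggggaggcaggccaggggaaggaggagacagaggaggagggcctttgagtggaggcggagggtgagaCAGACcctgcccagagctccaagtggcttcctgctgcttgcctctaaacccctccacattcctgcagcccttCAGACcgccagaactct
Fbln5, chr6:126742707-126742956, minus strand: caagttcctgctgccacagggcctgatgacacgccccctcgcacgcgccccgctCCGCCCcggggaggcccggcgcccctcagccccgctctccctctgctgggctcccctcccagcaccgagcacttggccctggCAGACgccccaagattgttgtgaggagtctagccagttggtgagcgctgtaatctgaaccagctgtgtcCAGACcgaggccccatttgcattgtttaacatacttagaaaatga

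In these windows Col1a2 held the TATA, CCAAT and Smad motifs, Sparc the Smad motif alone, and Fbln5 the Sp and Smad motifs. Over all 33469 RefSeq windows of that length, 42.9% held the Smad motif, 34.0% the CCAAT motif, 30.5% the Sp motif and 12.9% the TATA motif. A match is a string of letters and not a measured site.

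Fibroblast markers, 5 of which are also in the matrix list, stood lower too: of 16 tested, 14 were below 0, 11 in both differences, and 11 were lower at an unadjusted p under 0.05 (9.27% of all genes), with a median of -0.32. Fap, a protease on activated fibroblasts, was at -0.66 ± 0.15, with -0.65 and -0.66 in the 2 states. As a mean over the 16 markers, each relative to its own average over the 12 arrays, the list ran from 0.04 to 0.23 on the normal sodium arrays and from -0.24 to -0.06 on the low sodium arrays. Fibroblast marker levels thus moved with the matrix genes, and their part in the matrix values was not tested.

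Genes of the signals that regulate matrix were less uniform. Of 28 TGF-beta and profibrotic signalling genes, 19 were below 0 and 15 in both differences, against 56% and 33.9% of all genes. At an unadjusted p under 0.05, 7 were lower and 1 higher, against 9.27% and 4.49%. The median was -0.18, and -0.11 without low sodium with AngII replicate 3. It came to -0.09 after normexp, to -0.10 under median scaling and to -0.03 in the authors' values. Within slides 1, 2 and 3 it was -0.04, -0.26 and -0.14. Tgfb1, the growth factor itself, was at -0.58 ± 0.19 (adjusted p = 0.250), with -0.25 and -0.90 in the 2 states. Its target Ccn2 was at -0.46 ± 0.29, and at -0.22 when replicate 2 of the infused normal sodium group was left out. Ltbp2, a latent TGF-beta binding family member, was at -0.55 ± 0.14, the pseudoreceptor gene Bambi at -0.39 ± 0.11, and Inhbb, the activin subunit, at -0.34 ± 0.10.

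Among 21 matrix proteases and their inhibitors, 16 were below 0 (56% of all genes), 13 in both differences (33.9%), and 4 were lower at an unadjusted p under 0.05 (9.27%). Timp1, the metalloproteinase inhibitor that rises in fibrotic hearts, was at -0.42 ± 0.11 (adjusted p = 0.178), with -0.11 to 0.41 on normal and -0.39 to 0.06 on low sodium, an overlap due to 1 normal sodium array. Timp3 was at -0.49 ± 0.17 and the shedding protease gene Adam17 at -0.27 ± 0.09.

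Macrophage and monocyte markers stood lower nearly throughout: 23 of 24 below 0, 21 in both differences, and 16 lower at an unadjusted p under 0.05 against 9.27% of all genes. The median was -0.43, with -0.41 without infusion and -0.53 under AngII, and -0.34 to -0.49 over all settings, left-out arrays included. As a mean over the markers, the normal sodium arrays lay between 0.09 and 0.30 and the low sodium arrays between -0.52 and 0.01, the lowest being low sodium replicate 2. Within slides 1, 2 and 3 the median was -0.26, -0.48 and -0.55.

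Beside Adgre1, the members of small p were Aif1 (Iba1, an actin-binding protein of macrophages) at -0.47 ± 0.10 and Folr2 (a folate receptor of resident macrophages) at -0.60 ± 0.14. Folr2 did not overlap, at -0.03 to 0.67 on normal and -0.75 to -0.12 on low sodium. Chosen after their values were seen, Clec10a, a lectin of resident macrophages, was at -0.43 ± 0.11 without overlap. Csf1r, the receptor of the macrophage growth factor, was at -0.68 ± 0.18 and Trem2, a lipid receptor, at -0.64 ± 0.16 (-1.02 without infusion and -0.25 under AngII). Tlr2, a receptor for bacterial lipoproteins outside the list, was at -0.53 ± 0.10 without overlap.

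Antigen presentation and complement were lower in part. Of 8 MHC class II genes, 6 were below 0 and 4 in both differences, with a median of -0.30 that came to -0.13 after normexp and to -0.12 in the authors' values. Leaving out low sodium replicate 3 gave -0.19, leaving out normal sodium replicate 2 gave -0.47, and leaving out all 4 arrays of replicate 3 gave -0.08. Within slides 1, 2 and 3 it was 0.08, -0.16 and -0.61. In list level replicate 1 of the infused normal sodium group stood apart at -1.24, against -0.07 to 0.65 on the other 5 normal sodium arrays. RT1-Da was at -0.62 ± 0.14 and RT1-DMa at -0.57 ± 0.14, each with no overlap. Of 21 complement genes, 14 were below 0 and 9 lower at an unadjusted p under 0.05, against 9.27% of all genes, with a median of -0.24 that was -0.14 without normal sodium replicate 3. Of the list, 3 are the C1q genes that are also macrophage markers. The anaphylatoxin precursor gene C4a went the other way, at 1.00 ± 0.24 (adjusted p = 0.154), and Cfd (adipsin, factor D) was at -0.47 ± 0.13.

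Of 27 chemokines and receptors, 20 were below 0 (56% of all genes) and 17 in both differences (33.9%). The median was -0.23, and -0.14 in the authors' values. Cxcr4, the receptor of the chemokine Cxcl12, was at -0.92 ± 0.20 (adjusted p = 0.144), with -1.94 to -0.64 on normal and -2.48 to -1.85 on low sodium. Its ligand gene Cxcl12 was at 0.35 ± 0.08 on its brightest probe and -0.06 on another. Ccl6 was at -0.40 ± 0.09 with no overlap.

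Other leukocyte lists gave less. Of 17 lymphocyte markers, 13 were below 0 in the mean and 3 lower at an unadjusted p under 0.05 (9.27% of all genes). By state, 8 were below 0 in both differences (33.9% of all genes), 3 above 0 in both, and 6 had opposite signs. The median of -0.14 was 0.04 in the authors' values and -0.05 without low sodium replicate 2. Cd4 was at -0.59 ± 0.14, without overlap. The 12 neutrophil and mast cell markers had a median of -0.28, and of 0.01 in the authors' values and -0.15 without low sodium replicate 2, with the stem cell factor receptor gene Kit at -0.83 ± 0.18.

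**Figure D3:**
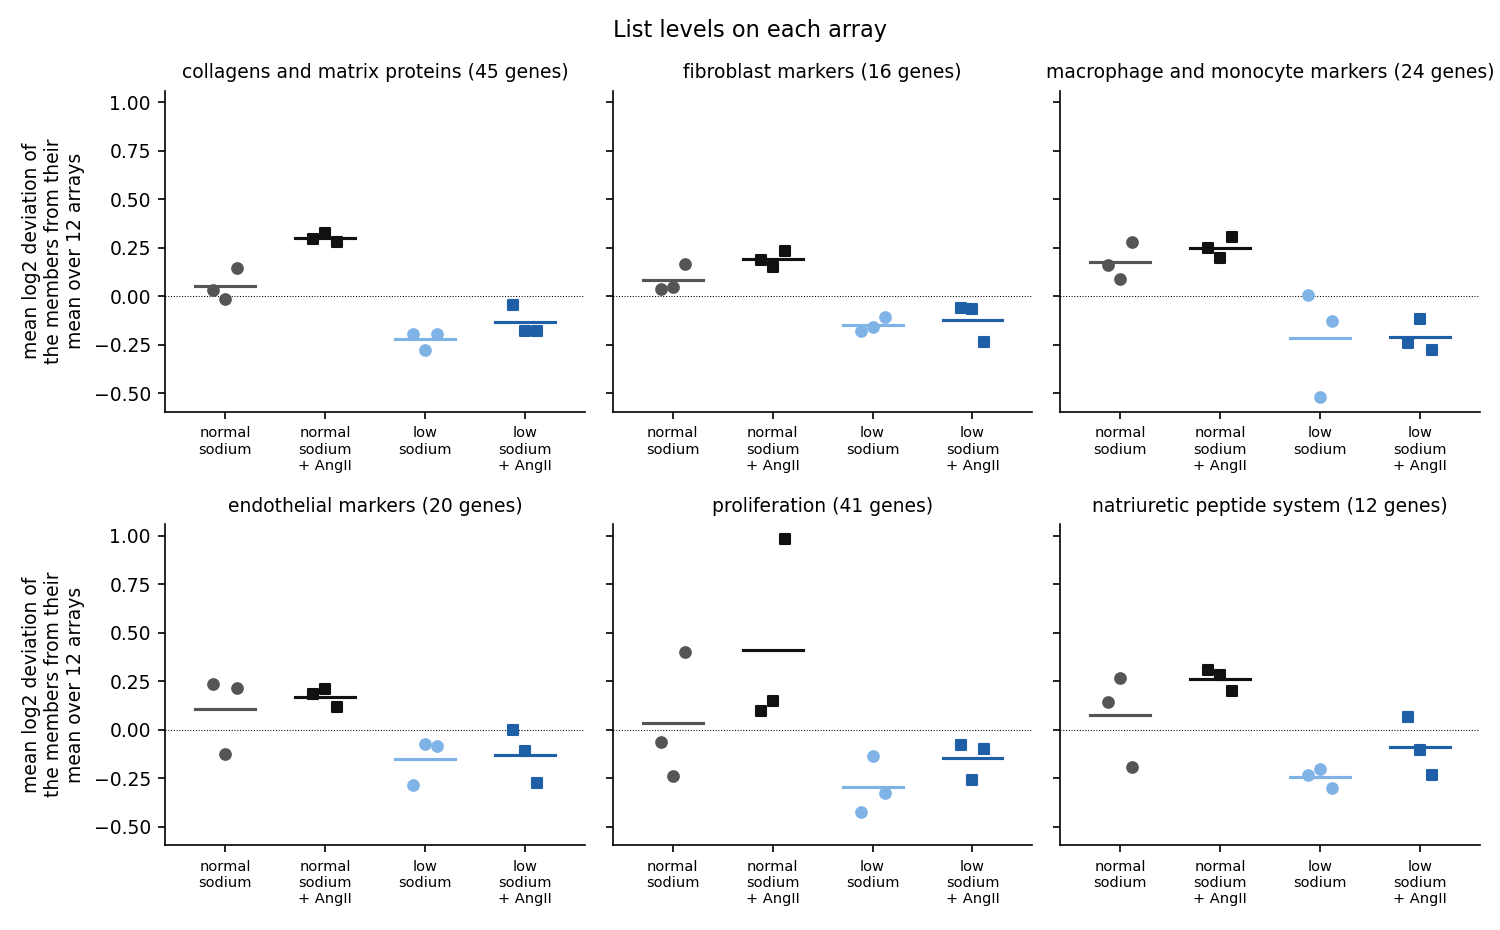
Mean level of 6 gene lists on each array, each member taken relative to its own mean over the 12 arrays (log2), with circles for uninfused and squares for infused rats, grey and black for normal sodium, blue for low sodium, and a line at each group mean. The matrix, fibroblast and macrophage levels of the 6 low sodium arrays lie below those of the 6 normal sodium arrays, while the endothelial, proliferation and natriuretic levels overlap.

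Endothelial markers stood low in both infusion states. Of 20, 18 were below 0, 16 in both differences and 9 at an unadjusted p under 0.05 (9.27% of all genes), with a median of -0.29 and of -0.30 and -0.33 in the 2 states. Within slides 1, 2 and 3 it was -0.39, -0.14 and -0.30. Aplnr, the apelin receptor, was at -0.83 ± 0.16 (adjusted p = 0.144), with -0.47 without infusion and -1.19 under AngII. Car4, the carbonic anhydrase on capillary surfaces, was at -0.61 ± 0.12, with -0.96 without infusion and -0.27 under AngII. Cd93 was at -0.52 ± 0.12, with 3.07 to 3.53 on normal and 2.45 to 3.02 on low sodium. Like Cd93, the endothelial transcription factor gene Sox18 at -0.46 ± 0.11 and the sialomucin gene Emcn at -0.31 ± 0.08, both chosen after their values were seen, had no overlap. The list level of normal sodium replicate 2 was -0.12, inside the range of the low sodium arrays.

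Vessel growth genes had no common direction: of 29 hypoxia and angiogenesis genes, 12 were below 0 and 8 above 0 in both differences. Among the 29, 4 were higher and 4 lower at an unadjusted p under 0.05, against 4.49% and 9.27% of all genes. The genes given next are from the lower side. Angpt2, which destabilises vessels, was at -0.60 ± 0.14 with no overlap, and Adm (adrenomedullin, a vasodilator peptide) at -0.42 ± 0.09. Mcam, a pericyte and endothelial adhesion molecule, was at -0.48 ± 0.13, but the 19 smooth muscle and pericyte markers did not share that direction. Of these, 13 had opposite signs in the 2 states, 3 were above 0 in both and 3 below 0 in both. Their median was 0.13, with 0.25 without infusion and -0.10 under AngII.

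Most proliferation genes stood lower, with a wide spread between arrays. Of 41, 38 were below 0, 32 in both differences (33.9% of all genes) and 18 lower at an unadjusted p under 0.05 (9.27%), with a median of -0.46. The median came to -0.28 under normexp and to -0.29 in the authors' values. Leaving out replicate 3 of the infused normal sodium group gave -0.30, and leaving out all 4 arrays of replicate 3 gave -0.20. That replicate stood at 0.98 in list level, against -0.24 to 0.40 for the other 5 normal sodium arrays. Ccnb1, the mitotic cyclin, was at -0.85 ± 0.21 with no overlap, and Ccnd1, the G1 cyclin, named after its value was seen, at -0.59 ± 0.17. Many of these genes are dim. Cenpa, a centromeric histone, was well above background on 4 normal and 1 low sodium arrays, and its -0.99 ± 0.21 became 0.13 in the authors' values.

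The natriuretic peptide system had 10 of 12 genes below 0 (56% of all genes), the same 10 in both differences (33.9%). At an unadjusted p under 0.05, 4 were lower (9.27% of all genes). The median was -0.27, and -0.13 both after normexp and in the authors' values. Nppb, which encodes B-type natriuretic peptide, a hormone released under wall stress, had 3.54 to 5.49 on normal sodium (median 4.62) and 2.81 to 3.69 on low sodium (median 3.45). The change was -1.14 ± 0.25 (2.20-fold lower, adjusted p = 0.144), with -0.83 and -1.44 in the 2 states, and 1 normal sodium array lay among the low sodium values. Nppa, the atrial peptide gene, was far more variable, at -0.61 to 2.86 on normal and -1.39 to 1.76 on low sodium, with a change of -1.78 ± 0.58 (adjusted p = 0.253).

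Receptor and processing genes differed in direction. Npr1, the guanylyl cyclase receptor of both peptides, was at -0.43 ± 0.12. Corin, the protease that cleaves the atrial peptide precursor, was at 0.84 ± 0.26, with 0.86 and 0.82 in the 2 states. Of 19 cardiac stress and fetal genes, 16 were below 0 and 10 in both differences, with a median of -0.05 without infusion and -0.37 under AngII. Ankrd1, a stretch response gene chosen after its value was seen, was at -0.42 ± 0.16. Myh7 and Acta1, the fetal myosin and actin genes, were at -0.19 ± 0.10 and -0.32 ± 0.22, and Acta1 came to -0.18 without normal sodium replicate 2. The adult myosin gene Myh6 was at -0.16 ± 0.12, and at 0 to 2 decimals after normexp.

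Atrial markers had no common direction. Of 10 tested, 4 were above 0 and 2 below 0 in both differences, and at an unadjusted p under 0.05 there was 1 higher and 2 lower. Sln, the atrial regulator of the calcium pump, was at 2.19 ± 0.86 (adjusted p = 0.330), with -3.10 to 0.65 on normal and -1.66 to 2.13 on low sodium. Myl7, the atrial light chain, was at 0.91 ± 0.74, and at 0.46 without low sodium with AngII replicate 2. Pam, which amidates peptides and is abundant in atria, was at -0.27 ± 0.11, with -0.25 and -0.30 in the 2 states. The part of atrial tissue in the Nppa values was not tested.

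Within the renin-angiotensin system, 9 of 13 genes were below 0 in both differences and 3 above 0 in both, with a median of -0.25 and 3 lower at an unadjusted p under 0.05 (9.27% of all genes). That median came to -0.16 after normexp and to -0.13 in the authors' values. Ace, which makes AngII, was at -0.28 ± 0.12 (adjusted p = 0.394). Prcp, an AngII-degrading enzyme, was at -0.83 ± 0.24, but -0.36 in the authors' values. The receptor gene Agtr1a was at -0.03 ± 0.08, with opposite signs of -0.08 and 0.03 in the 2 states and 0.05 in the authors' values, so no direction was detectable.

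Genes that respond to corticosteroids were split, 9 above and 5 below 0 in both differences among 21. Nr3c2, the mineralocorticoid receptor, was at 0.22 ± 0.10 and its target Sgk1 at 0.17 ± 0.19, with opposite signs of 0.38 and -0.04 in the 2 states. Errfi1 was at 0.59 ± 0.21. The metallothionein gene Mt1, which binds zinc and copper, was at -1.34 ± 0.44 (adjusted p = 0.253), with 1.57 to 4.39 on normal and 0.81 to 2.03 on low sodium. Mt2A, added after its value was seen, was at -1.21 ± 0.45. Klf15, a glucocorticoid-induced regulator of metabolism outside the list and chosen in the same way, was at 0.58 ± 0.13 without overlap, with 0.83 to 1.72 on normal and 1.85 to 2.05 on low sodium.

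Oxidative stress genes as a list had a median of -0.05, and of 0.03 under median scaling. Hmox1 (heme oxygenase 1) was at -1.0 ± 0.23 (adjusted p = 0.151), with -1.08 to 0.24 on normal and -2.33 to -1.14 on low sodium, without overlap. Cyba, the membrane subunit p22phox of NADPH oxidases, was at -0.45 ± 0.12, also without overlap. Nox4 was at -1.24 ± 0.37, but it was well above background on only 4 normal and 1 low sodium arrays, and it came to -0.24 after normexp.

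Adrenergic and endothelin signalling genes had a median of -0.09 over 18. Ednrb, the endothelin B receptor, was at -0.62 ± 0.20.

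Ion transport and calcium handling genes were mixed in sign. Of 43 channels, pumps and exchangers, 14 were above 0 and 12 below 0 in both differences, so the list had no common direction. Among the 43, 6 were higher and 5 lower at an unadjusted p under 0.05, against 4.49% and 9.27% of all genes. The transport genes given next are from the higher side. Besides Slc4a3, Kcnj12, an inward rectifier channel, was at 0.50 ± 0.11 without overlap, with -1.61 to -1.07 on normal and -0.98 to -0.64 on low sodium. The sodium pump beta subunit gene Atp1b1 was at 0.31 ± 0.10, over 11 arrays. Of 32 calcium handling genes, 23 were above 0 and 16 in both differences (23.4% of all genes), with a median of 0.07. At an unadjusted p under 0.05, 4 were higher and 0 lower, against 4.49% and 9.27% of all genes, and over all probes that split turned with the scaling. Cacna1c, the pore of the L-type calcium channel, was at 0.30 ± 0.09, and the calmodulin gene Calm2 at 0.32 ± 0.10 with no overlap.

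Energy metabolism genes had small values. Of 47 oxidative phosphorylation genes, 39 were above 0, against 4931 of all 11211 genes, and 26 in both differences (23.4% of all genes). But the median was 0.07, and 1 was higher at an unadjusted p under 0.05 (4.49% of all genes). Cox7b was at 0.24 ± 0.09 and Ndufs1 at 0.24 ± 0.11. Of 32 glucose uptake and glycolysis genes, 24 were above 0 and 16 in both (23.4% of all genes), with a median of 0.09. At an unadjusted p under 0.05, 4 were higher (4.49% of all genes). Aldoc was at 0.50 ± 0.12, the muscle phosphofructokinase gene Pfkm at 0.23 ± 0.06 and the glucose transporter gene Slc2a1 at 0.46 ± 0.18. The medians of these lists and of calcium handling kept their sign in every setting, but their size was near the shift of all probes between scalings. Of 41 fatty acid uptake and oxidation genes, 24 had opposite signs in the 2 states. The uncoupling protein genes Ucp2 and Ucp3 were at 0.55 ± 0.21 and 0.69 ± 0.29, and Angptl4, a lipoprotein lipase inhibitor chosen after its value was seen, at 1.32 ± 0.56. Ucp3 was at 0.45 when replicate 2 of the infused normal sodium group was left out.

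Immediate early and clock genes had medians near 0 that changed sign with the scaling. Ier5 was at -0.42 ± 0.09 without overlap, Klf6 at -0.40 ± 0.09 (11 arrays), and the clock genes Bmal1 and Cry1 at 0.30 ± 0.11 and 0.46 ± 0.18. Interferon response genes were the opposite case to the matrix list: 10 of 34 had the same sign in both differences, 29.4% against 57.2% of all genes, with a median of 0.17 without infusion and -0.56 under AngII. Without infusion the list levels overlapped, at -0.574 to 0.334 on normal and -0.365 to 0.422 on low sodium. Under AngII they were 0.119 to 0.423 and -0.371 to 0.026. Within slides 1, 2 and 3 the median diet change was -0.35, 0.03 and -0.17, and no probe passed the interaction test. Bst2 (tetherin) was among the 10 of the same sign, at -0.73 ± 0.18 over 11 arrays. Red cell markers were split too, at a median of 0.42 and -0.37, with 8 of 10 opposite. Their list level on the uninfused low sodium arrays ran from -0.329 to 0.48, and on the uninfused normal sodium arrays from -0.624 to -0.165.

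Over the 40 lists, 22 had a negative median in both infusion states, 5 a positive one in both and 13 medians of opposite sign. Adipocyte, skeletal muscle, nerve, atrophy, cholesterol, heat shock and ribosomal lists had medians between -0.17 and 0.07. The lists held 882 of the 11211 genes tested, and 27 of the 188 genes without overlap (1.68% of all genes). The other 161 of the 188 lay outside the lists. Scarb1, the receptor for high density lipoprotein, at -0.45 ± 0.10 and Fam13a at 0.69 ± 0.15 are examples, chosen after their values were seen.

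**Figure D4:**
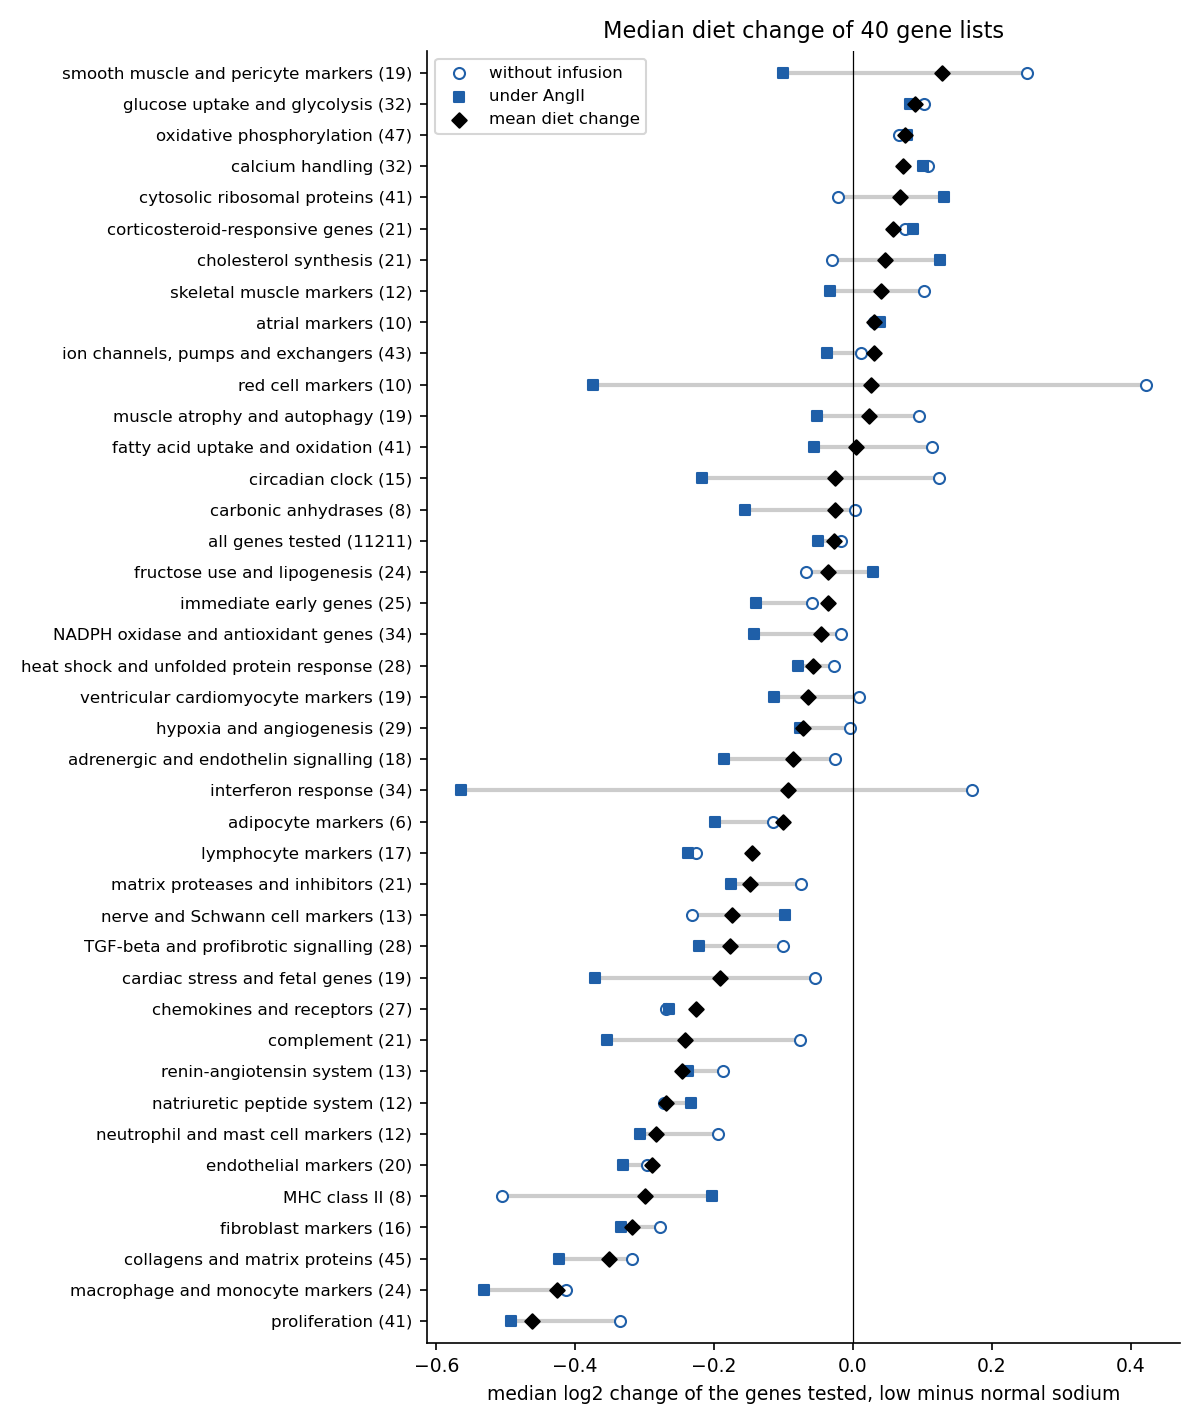
Median log2 change, low minus normal sodium, of the genes tested in each of 40 lists and of all genes (number of genes in brackets), without infusion (open circles), under AngII (squares) and as the mean diet change (diamonds). Proliferation, macrophage, matrix and fibroblast lists have the lowest diamonds, at -0.46 to -0.32, with both states on the same side, whereas the interferon and red cell lists span 0.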

How the data were processed

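Total RNA of rat ventricles was labelled with Cy3 and hybridised to 12 one-colour Agilent arrays, 1 per sample. The deposited intensity values are processed signals that Feature Extraction made by background subtraction (version 10.7.3.1 per the file headers, 11.0.1.1 per the submitters' processing notes). The authors' deposited log2 table, of which the notes name limma, served as an alternative, and its exact scale was not settled. Here the log2 processed signal was taken minus the 75th percentile of each array over non-control probes, and spots of 1 probe were averaged. Of 30367 probes, 20020 were well above background on all 3 arrays of at least 1 group and were tested, of which 13280 carried a symbol, for 11211 genes, and a gene is its brightest tested probe. limma 3.58.1 fitted 4 group means over the 12 arrays, with Benjamini-Hochberg adjustment over all tested probes at 0.05. The same fit was run on simulated data with independent noise on every array. That run held no shared slides and no arrays of unequal quality, so it cannot show how these affect the fit.

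The rule for named genes took, among genes with the same sign in both differences, the 12 of smallest p on each side and the 3 of smallest p in each list, then anchor genes and the 3 genes of smallest p in each direction for the difference between the diet changes, 143 genes in all. The last are not quoted, as no probe passed that test. A further 18 were chosen after their values were seen. The text gives 108 of these 161 by value, some items are not reported here, and the lists not named gene by gene as counts or medians. The members and the 40 lists were chosen with earlier results of these data known. Alternatives were other scalings and background corrections, dim-probe filters, array weights, slide blocks, the authors' values and left-out arrays. The percentile over probes and the restriction of the authors' values to tested probes were added after seeing the data.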

Additional observations from a re-analysis of the deposited data

Results flagged for a closer look

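For each gene given by value, the 6 arrays of a diet were searched for a single array far from the others by Dixon's test, and 15 of 216 sets held one, where chance gives about 1 in 20. In the normal sodium arrays, Nppa was lowest in normal sodium replicate 3 at -0.614, against 1.74 to 2.86 on the others, and without that array its diet change was -2.25. Normal sodium replicate 1 was lowest in Fap at -2.73, in Ndufs1 at 4.82 and in Klf15 at 0.826. Without it Ndufs1 was at 0.14. Normal sodium replicate 2 was highest in Aldoc at -0.436 and lowest in Adm at 0.75.

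Among infused normal sodium arrays, replicate 2 was lowest in Timp1 at -0.108 and highest in Hmox1 at 0.243, where the others ran from -1.08 to -0.73. Replicate 1 was highest in Cacna1c at 0.834, and replicate 3 in Ccnb1 at -3.17, without which the change was -0.64.

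In the low sodium arrays, Ccdc146 was lowest in low sodium replicate 1 at -6.98 and Ccl6 in replicate 2 at -1.18. Replicate 3 was lowest in Cyba at 1.65 and in Ier5 at 0.534. Ace was highest in low sodium with AngII replicate 1 at -0.673, against -1.50 to -1.27 on the others.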

How the results depend on the processing

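No probe passed for the mean diet change with limma, and with the replicate block, pairing arrays by number and slide, the count stayed 0, with 2777 probes at an unadjusted p under 0.05 and a smallest adjusted p of 0.0912. Same-numbered arrays of different groups had deviations correlated above 0.1 in 17 of 18 pairs. The count was 3 after normexp (Nacad and Col8a1 among them), 1 without a filter on dim probes and 413 with array weights, which also gave 4288 at an unadjusted p under 0.05. With arrays left out it ran from 0 to 20, and the unadjusted count from 1627 to 3361. Under AngII alone, 1 probe passed with the slide as a random block, quantile normalization or the authors' values, 2 with the authors' values of tested probes or the filter on all 12 arrays, 4 after normexp or median scaling and 842 with array weights, and 0 to 3 with arrays left out. Without infusion 0 to 1 passed with arrays left out. The difference between the 2 diet changes gave 0 in every setting run. Probes without overlap numbered 305 to 1326 with arrays left out, since fewer arrays overlap less, and the share of probes with the same sign was 47.5% to 62.1%. Of the 40 lists, 27 had a negative median, 19 under median scaling and 25 to 31 with arrays left out. Of the genes given by value, 104 kept their sign in every setting and 4, named below as reversed, did not. Most were named for the same sign and a small p on these arrays, so the kept signs are no separate support. With array weights 51 of them passed, against 413 of all 20020 probes, and the same choice of genes raises that count. Reversed were Cd200r1 (0.0747) and Cenpa (0.129) in both versions of the authors' values, Myh6 (5.3e-05) after normexp, and Agtr1a at 0.0226 after normexp, 0.0452 with median scaling, 0.0494 in both versions of the authors' values, 0.0411 with quantile normalization, 0.0388 with array weights, and -0.0894 to 0.0378 with arrays left out. The causes were not tested. Dim probes limit what the arrays can show, and 3 arrays per group limit precision.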
